A study of Homo sapiens with 6 samples.

Results

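The mRNAs of the cytosolic translation initiation factors (eIF) and elongation factors (eEF) were followed in Mono-mac-6 cells after guides against DDX6. Members were taken by name from the deposited expression table: symbols that begin with EIF and a digit from 1 to 6, or with EEF1 or EEF2, together with TPT1. The eIF2 kinases, the 4E-binding proteins, EIF4ENIF1, EIF4A3 and EEF1E1 bear such names but were left out of the set. Of 18806 symbols, 56 matched, and 53 had at least 1 TPM (a unit of transcript abundance, given as a share of the library after correction for transcript length) in 2 or more of the 6 libraries. The 3 names that did not pass were EEF1A2, EIF4E1B and EIF1AY. The rule itself uses no measured value besides this filter, although the set was proposed with results of these data known.

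Mono-mac-6 is a human acute myeloid leukemia (AML) line of monocytic character that carries the MLL-AF9 fusion gene. A single Cas9-expressing clone received a control guide (sgNS) or 1 of 2 guides against DDX6 (sgDDX6.1 and sgDDX6.2) by lentivirus and was selected with blasticidin and hygromycin B. Clone, Cas9, fusion gene and selection were thus common to all 3 groups, each of which had 2 libraries of poly(A)+ RNA. The labels place harvest at day 8 after infection, but the stated selection of 1 to 2 weeks leaves that day uncertain. The labels do not say if replicates are independent cultures, so the p-values reflect the spread between these libraries only, and that spread may be technical.

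An initiation factor helps the small ribosomal subunit to find the start codon of an mRNA. The eIF4 group binds the cap and unwinds the leader, eIF3 is the large scaffold on the small subunit, eIF2 brings the initiator tRNA and is recharged with GTP by eIF2B, and eIF1, eIF1A, eIF5 and eIF5B control start codon choice and subunit joining. Elongation needs eEF1A to deliver aminoacyl-tRNA, the eEF1B subunits to recharge it, and eEF2 to move the ribosome by a codon. Many of these mRNAs, like those of the ribosomal proteins, begin with a C followed by a run of pyrimidines, the 5′ terminal oligopyrimidine (TOP) tract, through which growth signals set their translation and stability. DDX6 is a DEAD-box helicase of mRNA decay and translational repression. The members named as TOP mRNAs in the rule were EEF1A1, EEF2, EIF3E, EIF3F and EIF3H.

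The first bases of a transcript carry the TOP tract, so the annotated starts of members that show each kind of change are printed first. Each line holds 10 bases before and 20 bases from the RefSeq start (build GRCh38.p14), 5′ to 3′ on the transcribed strand. Capitals mark the tract, defined as a C at the first transcribed base followed by at least 4 bases that are each C or T, to the end of that run. Lines without capitals have no such tract at that base.
EEF1A1 (chr6:73521013-73521042, minus strand): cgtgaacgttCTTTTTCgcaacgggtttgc
EEF2 (chr19:3985444-3985473, minus strand): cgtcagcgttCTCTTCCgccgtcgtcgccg
EIF3F (chr11:7987327-7987356, plus strand): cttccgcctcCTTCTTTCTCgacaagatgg
TPT1 (chr13:45341164-45341193, minus strand): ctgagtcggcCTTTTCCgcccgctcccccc
EEF1B2 (chr2:206159885-206159914, plus strand): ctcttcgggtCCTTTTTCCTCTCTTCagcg
EIF4B (chr12:53006446-53006475, plus strand): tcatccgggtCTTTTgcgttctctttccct
EIF3K (chr19:38619178-38619207, plus strand): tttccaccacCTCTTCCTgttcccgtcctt
EIF4A2 (chr3:186783567-186783596, plus strand): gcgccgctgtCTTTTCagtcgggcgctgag
EIF3B (chr7:2354817-2354846, plus strand): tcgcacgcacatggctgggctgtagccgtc
EIF4G2 (chr11:10808907-10808936, minus strand): acgccttagcgccagcagtgagtcggagct
EIF1 (chr17:41688875-41688904, plus strand): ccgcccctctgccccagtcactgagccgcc
The first 6 belong to mRNAs that fell after both guides, EIF3K has a tract and rose, and EIF4A2 has one and did not pass the test. EIF3B and EIF4G2 have none there and rose, and EIF1 has none there and fell. EEF1B2 and EIF4G2 each have another annotated start without a tract, and a member counted as having the tract where any of its starts did.

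DDX6 mRNA itself (GRCh38 chr11:118747766-118791149 in GENCODE 29) stood at 102 and 99.5 TPM in the sgNS libraries, 54.4 and 52.0 with sgDDX6.1, and 52.3 and 53.5 with sgDDX6.2. It was lower by 0.91 on the log2 scale (SE 0.041, limma adjusted p = 4.61e-09), and the mRNA of an edited gene does not measure its protein. Libraries of a group correlated at r = 0.998 over the genes tested, and libraries of different groups at 0.969 to 0.993. All 10 myeloid markers passed the TPM filter, 8 of them with at least 1 TPM in every library. Their summed level was 10394 to 10872 TPM in sgNS and 14867 to 16073 TPM in the sgDDX6 libraries, most of it LYZ. The T cell markers CD3D and CD3E, the erythroid marker HBB and the B cell marker MS4A1 were listed at 0 in all 6 libraries. The other 2 T and NK markers, CD8A and NKG7, passed the filter, 1 of them with at least 1 TPM in every library. The erythroid marker HBA1 passed the filter at up to 1.47 TPM. The summed erythroid markers were at 0 to 0.47 TPM in sgNS and 0.63 to 1.47 in the sgDDX6 libraries. Of the B cell and epithelial markers, 1 of 3 each passed, with highest values of 1.29 TPM (CD79A) and 1.25 TPM (KRT8). The summed T and NK markers, mostly NKG7, were at 106 to 114 TPM in sgNS and 130 to 191 in the sgDDX6 libraries. The summed endothelial markers, mostly PECAM1, which leukocytes also express, were at 64.7 to 66.9 TPM in sgNS and 135 to 200.5 in the sgDDX6 libraries. These sums moved with the guides, and their part in the results below was not tested. In a bulk sample, fewer cells of a type and less RNA per cell cannot be told apart.

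The translation factor mRNAs split in both directions after the DDX6 guides. The most abundant ones, EEF1A1, EEF1G, EEF2 and EEF1B2, went down, and the next, EIF4G2, went up. Of the 53 members, 25 were lower and 17 higher with both guides averaged against sgNS, and 11 did not pass. Calls were by limma (adjusted p under 0.05 over all 11151 genes tested). Unless a guide is named, fold changes and calls against sgNS are for this average. A call for the average does not mean that each guide passed alone. Among all genes tested, 66.7% were called in this comparison, 32.9% lower and 33.8% higher, against 47.2% lower and 32.1% higher among the members. The median log2 fold change was -0.06 over the members and 0.00 over all genes. With ribosomal protein genes taken out of the scale, members split into 15 higher and 30 lower, and all calls moved from 3764 higher and 3670 lower to 2859 higher and 4797 lower. TPM adds up to a fixed total, so each direction below is relative to the rest of the library.

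In the single libraries, all 4 sgDDX6 libraries lay below both sgNS libraries for 24 members and above both for 17, while the groups overlapped for 12. The same separation held for 31.9% of all genes below and 31.5% above. Each guide alone gave 42 called members, with 24 lower and 18 higher for sgDDX6.1 and 26 lower and 16 higher for sgDDX6.2, against 61.6% of all genes called for sgDDX6.1 (29.7% lower, 31.8% higher) and 64.2% for sgDDX6.2 (32.7% lower, 31.5% higher). These comparisons share the sgNS libraries.

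**Figure D1:**
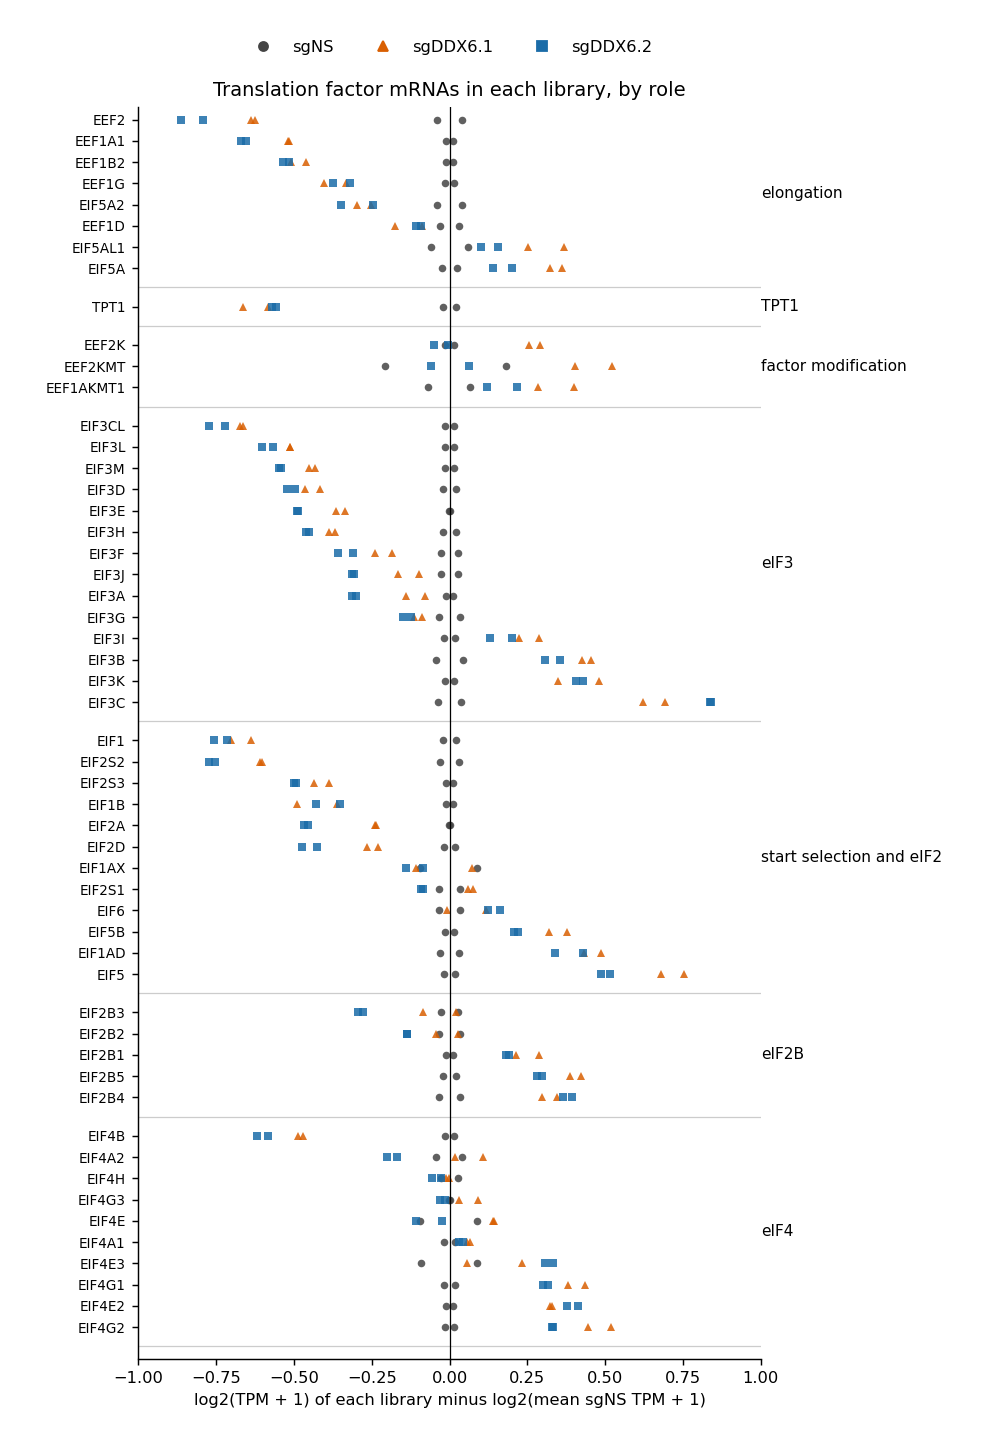
Each row is 1 translation factor gene, grouped by role; the horizontal axis is log2(TPM + 1) of a library minus log2 of the mean sgNS TPM + 1, with circles for sgNS, triangles for sgDDX6.1 and squares for sgDDX6.2 (2 libraries each). EEF2, EEF1A1, EIF3CL, EIF1 and EIF2S2 lie to the left of 0 in all 4 sgDDX6 libraries, and EIF3C, EIF5 and EIF4G2 lie to the right.

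Summed over the members, translation factor mRNAs made up 3.43% of the TPM in each sgNS library. The sum was 2.72% and 2.73% with sgDDX6.1 and 2.53% and 2.55% with sgDDX6.2. Relative to the sgNS share, the change was -20.6% and -25.9%. EEF1A1 alone gave 38.566% and 38.025% of that sum in sgNS and 32.4% to 33.8% in the sgDDX6 libraries. Members outside the 10 genes commonly listed as TOP mRNAs (EEF1A1, EEF1B2, EEF1D, EEF1G, EEF2, EIF3E, EIF3F, EIF3H, EIF4B and TPT1) held 0.980% of the TPM in sgNS, 0.973% with sgDDX6.1 and 0.910% with sgDDX6.2. Those 10 went from 2.45% to 1.75% and 1.63%, and so held most of the difference between the groups. Ribosomal protein mRNAs, 82 genes, held 23.7% and 23.8% in sgNS and 18.2% to 19.3% in the sgDDX6 libraries. With these genes taken out of the scale, members outside the 10 TOP mRNAs went from 1.285% in sgNS to 1.1996% with sgDDX6.1. With sgDDX6.2 they held 1.1151%. The small size of their change with sgDDX6.1 on the TPM scale thus depends on the scale.

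Elongation factors held 2.20% of the TPM in sgNS, 1.59% with sgDDX6.1 and 1.47% with sgDDX6.2. Of 8 tested, 6 fell (EEF1A1, EEF1B2, EEF1G, EEF1D, EEF2 and EIF5A2), EIF5A rose and EIF5AL1 did not pass. This is 75.0% lower and 12.5% higher, beside 32.9% and 33.8% of all genes. EEF1A1, which delivers aminoacyl-tRNA to the ribosome and was the most abundant member, stood at 13240 and 13033 TPM in sgNS, 9188 and 9174 with sgDDX6.1, and 8355 and 8255 with sgDDX6.2. The groups did not overlap, and sgDDX6.2 was the lowest. Its log2 fold change was -0.59 (SE 0.024, limma adjusted p = 1.89e-09), equal to 0.665 of the sgNS level. The annotation holds 39 pseudogenes named after EEF1A1, none of them a row of the table, so its reads could be assigned differently by another annotation.

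EEF2, the translocase that moves the ribosome along the mRNA, was at 2382 and 2520 TPM in sgNS. With sgDDX6.1 it was at 1574 and 1590 TPM, and with sgDDX6.2 at 1348 and 1413. On the TPM scale this was the largest fall of any member (-0.73, SE 0.032, limma adjusted p = 3.78e-09), and no pseudogene is named after EEF2. The EEF1A1 to EEF2 ratio in TPM was 5.56 and 5.17 in sgNS and 5.7692 to 6.2002 in the sgDDX6 libraries.

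The subunits of the exchange factor that recharges eEF1A moved the same way as EEF1A1, to different extents. EEF1B2, a catalytic subunit, went from 2099 and 2065 TPM to 1462 and 1512 with sgDDX6.1 and to 1457 and 1435 with sgDDX6.2 (-0.51, adjusted p = 2.57e-08). EEF1G, the structural subunit, went from 3545 and 3614 TPM to 2704 and 2842, and to 2759 and 2866 (-0.36, adjusted p = 9.20e-07). All 4 sgDDX6 libraries were below sgNS for both genes, and the guides overlapped with each other for EEF1G. Under quantile normalization the fall of EEF1G was smaller (-0.18, adjusted p = 5.80e-05). EEF1D, the other catalytic subunit, was lower by 0.12 with both guides combined (adjusted p = 0.0159), but not with sgDDX6.2 alone (adjusted p = 0.0605), nor when sgNS replicate 2 was left out (-0.08, adjusted p = 0.153). Neuronal and muscle EEF1A2, the close paralog of EEF1A1, was listed at 0.03 to 0.25 TPM and was not tested.

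EIF5A, which carries the hypusine residue and helps the ribosome through difficult peptide bonds, went against the other abundant elongation factors. It stood at 488 and 504 TPM in sgNS, 620 and 637 with sgDDX6.1, and 547 and 570 with sgDDX6.2, a log2 fold change of 0.26 (SE 0.032, adjusted p = 2.50e-05). The sgDDX6.1 libraries were the highest and the sgNS libraries the lowest. Its paralog EIF5A2 was low, at 4.18 and 4.47 TPM in sgNS and 3.18 to 3.49 in the sgDDX6 libraries (-0.29, adjusted p = 0.00720), and lost the call without sgNS replicate 1 (adjusted p = 0.0739). Under quantile normalization and under a correction for GC content EIF5A2 was not called either. EIF5AL1, an intronless copy of EIF5A, was listed at 0.85 to 1.49 TPM and shares nearly all of its sequence with EIF5A.

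TPT1, the translationally controlled tumor protein whose mRNA is a standard example of a TOP transcript, fell as far as EEF1A1. It was at 644 and 625 TPM in sgNS, 400 and 423 with sgDDX6.1, and 431 and 427 with sgDDX6.2 (-0.59, SE 0.033, adjusted p = 2.88e-08). All sgDDX6 libraries were below sgNS, and the order of the guides was opposite to that of EEF1A1. The difference between guides did not pass for TPT1 (0.06, adjusted p = 0.241). GENCODE 29 names 14 pseudogenes after it.

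**Figure D2:**
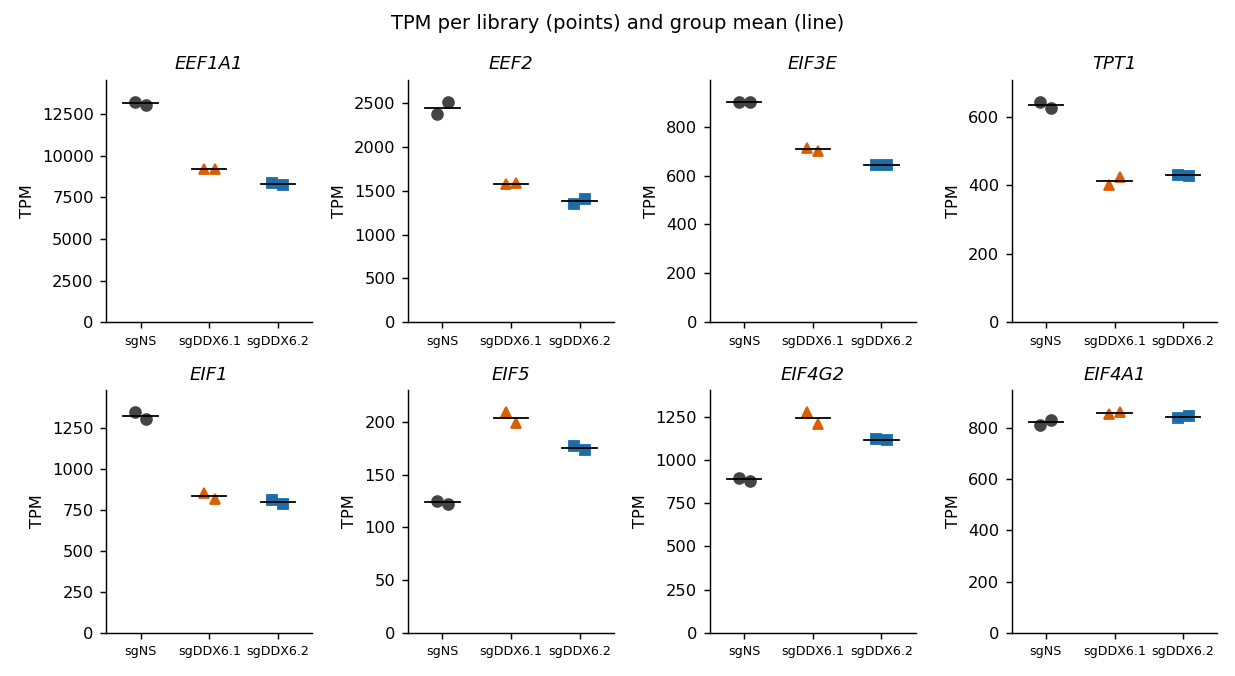
TPM in each library (points, linear axes from 0) and group mean (line) for 8 translation factor genes in sgNS, sgDDX6.1 and sgDDX6.2, 2 libraries each. EEF1A1, EEF2, EIF3E, TPT1 and EIF1 were lower in all sgDDX6 libraries, EIF5 and EIF4G2 higher, and EIF4A1 lay between 811 and 859 TPM throughout.

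Among the 3 members that modify elongation factors, levels were low. EEF1AKMT1, a lysine methyltransferase of eEF1A, rose by 0.26 (17.0 and 18.8 TPM in sgNS, 19.5 to 23.9 in sgDDX6 libraries, adjusted p = 0.00331). It passed with sgDDX6.1 alone (0.34, adjusted p = 0.00144) but not with sgDDX6.2 alone (0.17, adjusted p = 0.0572). EEF2KMT, a lysine methyltransferase of eEF2, was called higher by 0.24 (adjusted p = 0.0444), but its 6.86 and 9.27 TPM in sgNS overlapped with sgDDX6.2, and the call was lost without sgNS replicate 1 (0.05, adjusted p = 0.662), without sgDDX6.1 replicate 1 (adjusted p = 0.139) or replicate 2 (adjusted p = 0.0707) and without sgDDX6.2 replicate 1 (adjusted p = 0.0912). EEF2K, the kinase that inactivates eEF2, did not pass (0.12, adjusted p = 0.0616), but was called higher under quantile normalization, median centring and GC correction and without the variance trend (adjusted p from 0.0112 to 0.0381).

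The eIF3 scaffold changed in every one of its 14 measured genes, 10 lower and 4 higher. This is 71.4% lower and 28.6% higher, beside 32.9% and 33.8% of all genes. Subunits that sit in the same complex went opposite ways: EIF3E, EIF3H, EIF3F, EIF3L, EIF3M, EIF3D, EIF3CL, EIF3J, EIF3A and EIF3G fell, while EIF3B, EIF3I and EIF3K rose. EIF3C also rose, but it is a near-identical copy of EIF3CL, and the pair added together fell by 0.63. Together the 14 genes held 0.510% and 0.512% of the TPM in sgNS and 0.413% to 0.446% in the sgDDX6 libraries. The median log2 fold change of the group was -0.25, with a range from -0.71 to 0.75.

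Of the TOP members in eIF3, EIF3E and EIF3H fell by the same measure and EIF3F by less. EIF3E was at 902 TPM in both sgNS libraries, 715 and 700 with sgDDX6.1, and 641 and 643 with sgDDX6.2 (-0.42, SE 0.028, adjusted p = 1.31e-07). EIF3H was at 722 and 702 TPM, then 544 and 551, then 520 and 517 (-0.42, adjusted p = 2.04e-07). EIF3F was at 362 and 376 TPM, then 313 and 324, then 288 and 297 (-0.27, adjusted p = 2.52e-05). In each of the 3, every sgDDX6 library lay below sgNS and every sgDDX6.2 library below sgDDX6.1. After the correction for GC content the fall was smaller for EIF3E (-0.27) and EIF3F (-0.16, adjusted p = 0.0122).

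Other falling subunits included EIF3L, EIF3M and EIF3D, the last of which can bind the cap. EIF3L went from 267 and 272 TPM to 189 in both sgDDX6.1 libraries and 177 and 182 with sgDDX6.2 (-0.55, adjusted p = 5.33e-08). EIF3M went from 330 and 323 TPM to 242 and 238, then 224 and 223 (-0.49, adjusted p = 9.25e-08). EIF3D fell by 0.47 and EIF3J, the loosely bound subunit, by 0.22. The core scaffold subunit EIF3A fell by 0.21 and EIF3G by 0.12. After the GC correction EIF3J was at -0.08 (adjusted p = 0.0162) and EIF3A at -0.13. EIF3G lost its call without sgNS replicate 2 (-0.09, adjusted p = 0.116).

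Among the rising subunits, EIF3B, a core subunit that binds the small ribosomal subunit, was at 261 and 277 TPM in sgNS, 369 and 361 with sgDDX6.1, and 333 and 344 with sgDDX6.2 (0.39, SE 0.035, adjusted p = 1.90e-06). EIF3K, a small subunit that pairs with EIF3L in the complex, was at 288 and 282 TPM in sgNS and 364 to 398 in the sgDDX6 libraries (0.42, adjusted p = 1.97e-06). EIF3I, a partner of EIF3B, rose by 0.21 (adjusted p = 2.81e-04). Within a library, the EIF3K to EIF3L ratio in TPM was 1.08 and 1.04 in sgNS and 1.93 to 2.14 in the sgDDX6 libraries, and that of EIF3B to EIF3E moved from 0.289 and 0.307 to between 0.516 and 0.535. Such ratios do not depend on the scale of the library.

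EIF3C and EIF3CL are near-identical copies on chromosome 16 (GENCODE 29: EIF3C at chr16:28688558-28735730 on the plus strand, EIF3CL at chr16:28379579-28403879 on the minus strand), so the division of reads between them is uncertain. EIF3CL took 551 and 561 TPM in sgNS and 325 to 350 in the sgDDX6 libraries (-0.71, adjusted p = 3.64e-09). EIF3C took 17.7 and 16.8 TPM in sgNS, 27.1 and 28.5 with sgDDX6.1, and 31.6 in both sgDDX6.2 libraries (0.75, adjusted p = 1.82e-07). Added together, an alternative chosen after their values were seen, the pair fell by 0.63 (SE 0.031, adjusted p = 8.68e-09), close to EIF3CL alone. EIF3C by itself and the summed pair thus went in opposite directions.

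**Figure D3:**
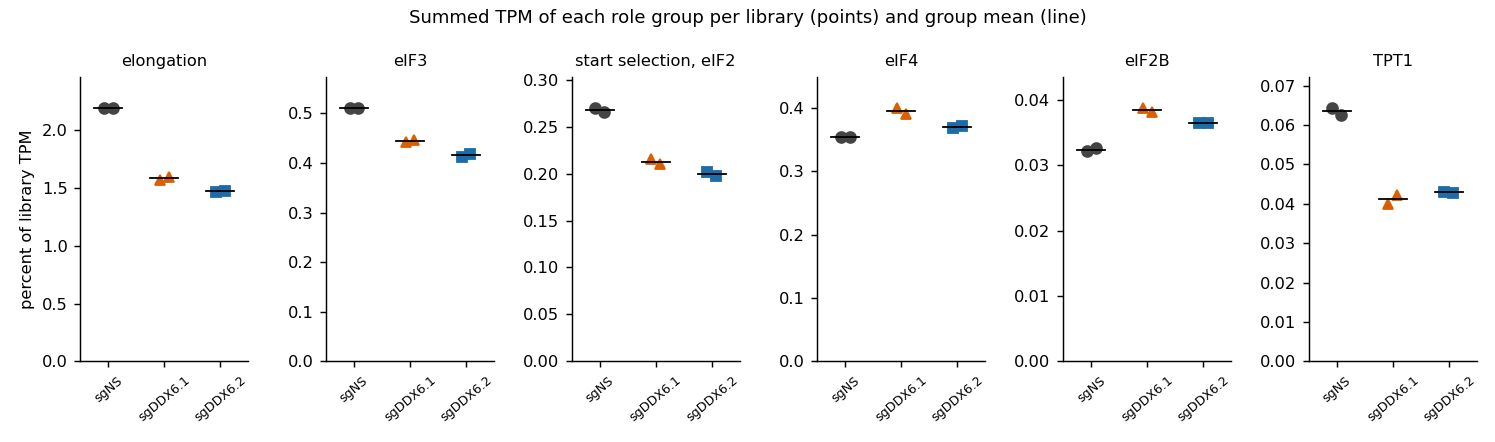
Summed TPM of each role group as a percent of the library (linear axes from 0), with a point per library and a line at the group mean, for sgNS, sgDDX6.1 and sgDDX6.2 (2 libraries each). Elongation factors, eIF3, the start selection and eIF2 group and TPT1 were lower in the sgDDX6 libraries, and eIF4 and eIF2B were higher on this scale.

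Factors of start codon selection and the eIF2 group held 0.268% of the TPM in sgNS, 0.213% with sgDDX6.1 and 0.200% with sgDDX6.2, with 6 of 12 lower, 3 higher and 3 not past the threshold. EIF1, which keeps the scanning ribosome open until the start codon is found, was at 1345 and 1308 TPM in sgNS, 853 and 814 with sgDDX6.1, and 808 and 785 with sgDDX6.2 (-0.70, SE 0.031, adjusted p = 3.98e-09). EIF5, which makes eIF2 hydrolyze its GTP and acts against EIF1 in start codon choice, was at 125 and 122 TPM in sgNS, 209 and 199 with sgDDX6.1, and 177 and 174 with sgDDX6.2 (0.61, SE 0.036, adjusted p = 5.10e-08). The EIF5 to EIF1 ratio in TPM was 0.0930 and 0.0933 in sgNS, 0.245 and 0.244 with sgDDX6.1, and 0.219 and 0.221 with sgDDX6.2. The groups were far apart in this ratio compared with the distance between replicates. EIF1 has 7 pseudogenes named after it.

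The 3 subunits of eIF2 were not changed to the same extent. EIF2S2, the beta subunit, went from 295 and 283 TPM to 190 and 189, then 171 and 169 (-0.68, adjusted p = 1.03e-08). EIF2S3, the gamma subunit that holds GTP, went from 185 and 188 TPM to 142 and 138, then 132 in both (-0.45, adjusted p = 4.03e-07). EIF2S1, the alpha subunit that the stress kinases phosphorylate, was at 102 and 97.5 TPM in sgNS and 93.6 to 105 in the sgDDX6 libraries (-0.01, adjusted p = 0.820), and its groups overlapped. EIF2S1 was called lower with ribosomal protein genes taken out of the scale (-0.10, adjusted p = 0.0255) and higher after the GC correction (0.12, adjusted p = 0.00470). Within a library, the EIF2S1 to EIF2S2 ratio was 0.347 and 0.345 in sgNS and 0.550 to 0.554 in the sgDDX6 libraries.

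Of the others in this group, EIF1B, a paralog of EIF1, fell by 0.41, and EIF2A and EIF2D, which can bring initiator tRNA in place of eIF2 on some mRNAs, by 0.35 each. EIF1AD, named for its similarity to eIF1A, rose by 0.42 (37.3 and 38.9 TPM in sgNS, 48.4 to 53.8 in sgDDX6 libraries, adjusted p = 9.80e-06). EIF5B, the GTPase of subunit joining, rose by 0.28. EIF1AX (-0.06, adjusted p = 0.393, but -0.16 and called with ribosomal protein genes taken out of the scale and 0.13 and called after the GC correction) and the ribosome biogenesis factor EIF6 (160 and 168 TPM in sgNS, 163 to 184 in sgDDX6 libraries, 0.10, adjusted p = 0.0581) did not pass. EIF6 was called without sgNS replicate 2 (0.13, adjusted p = 0.0427) and without sgDDX6.1 replicate 1 (0.13, adjusted p = 0.0132).

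The nucleotide exchange factor eIF2B, made of 5 subunits, had 3 higher and 1 lower. Its summed share was 0.0321% and 0.0326% in sgNS, 0.0388% and 0.0381% with sgDDX6.1, and 0.0365% and 0.0364% with sgDDX6.2, and it was also higher than in sgNS with ribosomal protein genes taken out of the scale (0.0424%, 0.0474% and 0.0447%). EIF2B4, the delta subunit, was at 55.8 and 58.5 TPM in sgNS and 70.5 to 75.3 in the sgDDX6 libraries (0.35, adjusted p = 1.57e-05). The catalytic epsilon subunit EIF2B5 was at 79.3 and 81.6 TPM in sgNS, 108 and 106 with sgDDX6.1, and 97.9 and 99.2 with sgDDX6.2 (0.35, adjusted p = 7.23e-06). EIF2B1 rose by 0.22, EIF2B2 did not pass (-0.07, adjusted p = 0.177), and the gamma subunit EIF2B3 fell by 0.16 (adjusted p = 0.0196). With sgDDX6.2 alone EIF2B3 was lower (-0.29, adjusted p = 0.00157). With sgDDX6.1 alone it did not pass (-0.03, adjusted p = 0.667), and those libraries overlapped with sgNS. EIF2B3 lost its call without sgNS replicate 2 (-0.13, adjusted p = 0.132) and without sgDDX6.2 replicate 1 (-0.15, adjusted p = 0.0544).

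On the TPM scale, cap-binding and unwinding factors of the eIF4 group rose or did not pass, apart from EIF4B. This split depended on the scale. Under quantile normalization 4 were higher and 4 lower, and with ribosomal protein genes taken out of the scale 3 and 3. EIF4E3 lost its call on the latter scale (0.15, adjusted p = 0.0839). Of 10 tested on the TPM scale, EIF4G1, EIF4G2, EIF4E2 and EIF4E3 rose, EIF4B fell, and EIF4A1, EIF4A2, EIF4E, EIF4G3 and EIF4H did not pass. EIF4G2, a scaffold that acts without the cap-binding protein, was the most abundant of them at 897 and 880 TPM in sgNS, 1275 and 1211 with sgDDX6.1, and 1119 and 1116 with sgDDX6.2 (0.41, SE 0.030, adjusted p = 3.21e-07). EIF4G1, the main scaffold of the cap-binding complex, was at 340 and 349 TPM in sgNS, 466 and 449 with sgDDX6.1, and 425 and 430 with sgDDX6.2 (0.36, adjusted p = 1.37e-06). Both stood higher in every sgDDX6 library than in any sgNS library, while their paralog EIF4G3 was at 71.2 to 77.6 TPM throughout (0.02, adjusted p = 0.683). EIF4G2 rose by less under quantile normalization (0.24, adjusted p = 4.52e-05).

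The unwinding factors divided. EIF4B, which stimulates the helicase, was at 416 and 408 TPM in sgNS, 297 and 294 with sgDDX6.1, and 268 and 274 with sgDDX6.2 (-0.54, adjusted p = 3.83e-08). The helicase EIF4A1 was at 811 and 830 TPM in sgNS, 854 and 859 with sgDDX6.1, and 838 and 846 with sgDDX6.2, which did not pass (0.05, adjusted p = 0.139), and its direction turned under quantile normalization (-0.09, adjusted p = 0.0122), while it was called higher after the GC correction (0.06, adjusted p = 0.0443). EIF4H, a relative of EIF4B in function, did not pass on the TPM scale (-0.02, adjusted p = 0.515). Nor did EIF4A2, the paralog of EIF4A1 (-0.06, adjusted p = 0.178). Both EIF4H and EIF4A2 were called lower under quantile normalization and with ribosomal protein genes taken out of the scale. For EIF4A2 the values were -0.10 (adjusted p = 0.037) and -0.15 (adjusted p = 0.00326). The EIF4A1 to EIF4B ratio in TPM was 1.95 and 2.04 in sgNS and 2.88 to 3.13 in the sgDDX6 libraries.

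Of the cap-binding proteins, EIF4E was at 50.8 and 44.7 TPM in sgNS, 52.7 and 52.8 with sgDDX6.1, and 47.0 and 44.2 with sgDDX6.2, with overlapping groups (0.04, adjusted p = 0.536). EIF4E2, a paralog that acts mainly in translational repression, was at 47.9 and 48.6 TPM in sgNS and 60.6 to 64.6 in the sgDDX6 libraries (0.36, adjusted p = 9.83e-06). EIF4E3 was low, at 11.3 and 13.0 TPM in sgNS and 12.7 to 15.6 in the sgDDX6 libraries (0.24, adjusted p = 0.0128). It passed with sgDDX6.2 alone (0.32, adjusted p = 0.00513) but not with sgDDX6.1 alone (0.15, adjusted p = 0.143). Its call was lost without sgNS replicate 2 (0.15). The summed eIF4 share was 0.354% in sgNS, 0.396% with sgDDX6.1 and 0.370% with sgDDX6.2, but with ribosomal protein genes taken out of the scale it went from 0.464% to 0.488% with sgDDX6.1 and to 0.453% with sgDDX6.2, so its direction for sgDDX6.2 depends on the scale.

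The 5 TOP members set out in the rule all fell with each guide, while the other 48 divided. The median log2 fold change was -0.42 for the TOP members and -0.02 for the others, of which 20 fell, 17 rose and 11 did not pass. Within each library, the median log2(TPM + 1) of the TOP members lay above that of the others by 2.38 and 2.37 in sgNS, by 2.04 and 2.01 with sgDDX6.1, and by 1.96 and 1.98 with sgDDX6.2. This distance is not touched by the scale of the library, and it was smaller in each sgDDX6 library than in any sgNS library. The wider list of 10 TOP mRNAs fell in 10 of 10 members with a median of -0.46, and the 43 members outside it had 17 higher and 15 lower with a median of 0.04. The members were proposed with results of these data known, so the counts are a description and no test of the list was made.

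The same division was read from the annotated start itself. RefSeq had a start for 43 of the 53 members, and at 13 of these the first transcribed base opened a TOP tract as defined above: EEF1A1, EEF1B2, EEF2, EIF2A, EIF2D, EIF2S3, EIF3D, EIF3F, EIF3K, EIF3M, EIF4A2, EIF4B and TPT1. The search was on the transcribed strand alone, and its definition was chosen after the expression values were seen. Such a tract was present at 4.07% of 35116 annotated starts and in 7.66% of 8717 tested genes with an entry, against 30.2% of the members and 70.8% of 65 ribosomal protein genes with one. A match is a feature of the annotated sequence and not a measured start in these cells.

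Of the 13 members with the tract, 11 fell, EIF3K rose and EIF4A2 did not pass, with a median of -0.47. Of the 30 with a start but no tract there, 6 fell, 14 rose and 10 did not pass, with a median of 0.17. The latter split depended on the scale, with 13 higher and 10 lower (median 0.08) with ribosomal protein genes taken out of the scale and 20 higher and 5 lower (median 0.19) after the correction for GC content, while the 13 with the tract had 12 lower and 1 higher on the former scale and 11 lower and 1 higher on the latter. Among other tested genes, neither members nor ribosomal, 609 had the tract, and 253 of them (41.5%) fell and 166 rose, with a median of -0.08. The 8000 without it had 31.5% lower and 34.5% higher, with a median of 0.01. Ribosomal protein genes with the tract fell in 44 of 46 cases and rose in none (median -0.36), and those without it fell in 15 of 19 cases and rose in 3 (median -0.29).

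Abundance differed between these groups, so the counts were repeated for genes with a mean of 100 TPM or more. At that level 9 of 11 members with the tract fell and 1 rose, against 3 of 14 lower and 8 higher without it. Other abundant genes had 46 of 126 lower and 48 higher with the tract, and 273 of 1213 lower and 658 higher without it. When the tract could begin within 5 bases of the annotated start on either side, 22 members had it (14 lower, 6 higher) and 21 did not (3 lower, 9 higher), and 29.6% of tested genes with an entry had it. The 10 members without an entry were EEF1AKMT1, EEF1D, EEF2KMT, EIF2S2, EIF3A, EIF3CL, EIF3E, EIF3G, EIF3H and EIF3L, of which 8 fell and 2 rose.

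**Figure D4:**
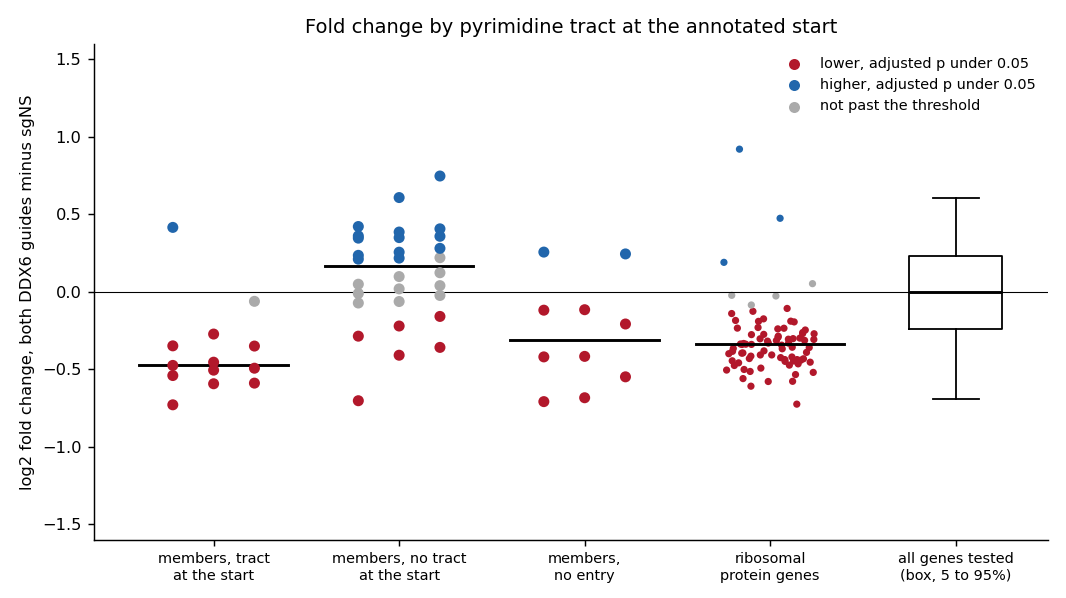
The vertical axis is the log2 fold change of both DDX6 guides averaged against sgNS. Shown are members with the pyrimidine tract at the annotated start, members without it, members with no RefSeq entry, and ribosomal protein genes. Each point is a gene, and the bars are medians. The box shows the median, quartiles and 5 to 95% range of all genes tested. Members with the tract have a median of -0.47 and those without it 0.17.

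Exceptions to the division ran in both directions. EIF3K, whose tract is printed above, rose by 0.42. EIF4A2, which also opens with a tract, was at 298 and 281 TPM in sgNS, 312 and 293 with sgDDX6.1, and 252 and 258 with sgDDX6.2. It did not pass on the TPM scale, but was called lower under the 2 other scalings given above. EIF1 and EEF1G have no tract at the first annotated base and fell by 0.70 and 0.36. EIF1B and EIF3J, which fell by 0.41 and 0.22, have none there either. With the window of 5 bases, EIF1, EIF3J and EIF5A2, which fell, do have a tract, and EEF1G and EIF1B do not. That window also gives a tract to EIF3C, EIF4E2, EIF4G1, EIF4G2 and EIF5, which rose, and to EEF2K, which did not pass.

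The guides were then compared with each other. Of the 53 members, 21 were lower and 1 higher with sgDDX6.2 than with sgDDX6.1 (adjusted p under 0.05), while 35.6% of all genes were called in this comparison, 18.6% lower and 17.0% higher. The members' median was -0.10. This count depended on single libraries. It fell most without sgDDX6.1 replicate 1, sgDDX6.2 replicate 1 or sgDDX6.2 replicate 2, and little without sgDDX6.1 replicate 2. The count over all genes also fell in each of these cases. Without the variance trend 12 members were called. DDX6 mRNA did not pass between the guides (-0.01, adjusted p = 0.918).

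Among the members with the largest differences between guides was EEF2KMT, at 12.02 and 10.99 TPM with sgDDX6.1 and 8.47 and 7.69 with sgDDX6.2 (-0.46, SE 0.11, adjusted p = 0.00904). EEF2K was at 20.3 and 19.8 TPM with sgDDX6.1 and 15.9 and 16.4 with sgDDX6.2, the latter within 1 TPM of sgNS at 16.3 and 16.6 (-0.30, adjusted p = 0.00361). EIF2B3 (-0.25, adjusted p = 0.00823), EIF4A2 (-0.25, adjusted p = 0.00155) and EIF2A (-0.22, adjusted p = 0.00231) were also lower with sgDDX6.2. EIF3C was the member higher with sgDDX6.2 (0.18, adjusted p = 0.0358), and the sum of EIF3C and EIF3CL did not pass between guides (-0.06, adjusted p = 0.233).

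The calls of EEF2KMT, EIF2B3 and EIF3C between guides were lost without sgDDX6.1 replicate 1 (adjusted p = 0.0966, 0.0533 and 0.138). EIF2B3 was also lost without sgDDX6.2 replicate 1 (adjusted p = 0.0589), EEF2KMT without sgDDX6.2 replicate 2 (adjusted p = 0.0524), and EIF3C without either of these libraries (adjusted p = 0.153 and 0.161). Of the TOP members, EEF1A1 (-0.14), EEF2 (-0.20), EIF3E (-0.14) and EIF3F (-0.12) were lower with sgDDX6.2 than with sgDDX6.1, and EIF3H did not pass (-0.08, adjusted p = 0.0905).

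**Figure D5:**
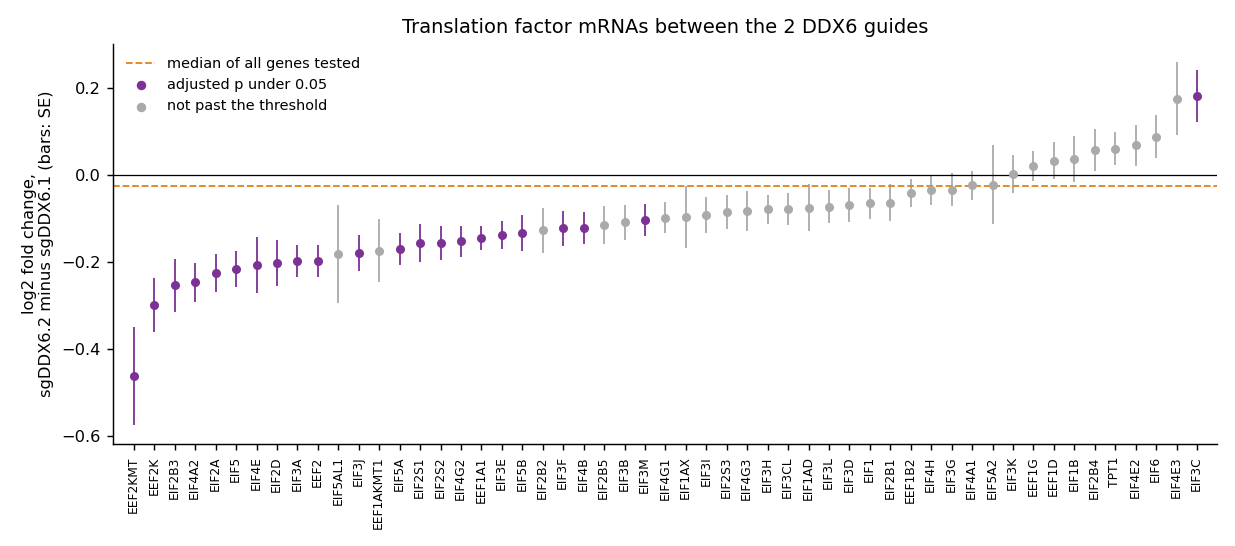
Log2 fold change of sgDDX6.2 minus sgDDX6.1 (points) with its standard error (bars) for each tested translation factor gene, ordered by value; the dashed line is the median of all genes tested. Most members lie below 0, from -0.46 for EEF2KMT to 0.18 for EIF3C, with 21 called lower and 1 called higher.

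Around the core factors, lists of other translation genes were counted in the same fit. Of 18 tested initiation helpers and cap regulators, 11 fell and 2 rose with both guides averaged against sgNS, with a median of -0.14. This is 72.2% called, beside 66.7% of all genes, and 61.1% lower, beside 32.9%. PDCD4, an inhibitor of the EIF4A helicase, was at 130 and 123 TPM in sgNS and 65.4 to 67.6 in the sgDDX6 libraries (-0.91, adjusted p = 3.78e-09). PABPC1, the poly(A)-binding protein and itself a TOP mRNA, was at 2491 and 2454 TPM in sgNS, 1728 and 1612 with sgDDX6.1, and 1464 and 1477 with sgDDX6.2. CTIF, a scaffold of the nuclear cap-binding complex, fell by 0.87, and MKNK2, a kinase of EIF4E, by 0.59.

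The inhibitors of cap binding and the kinases of EIF2S1 were all called, 4 lower and 3 higher of 7. Among all genes 66.7% were called, 32.9% lower and 33.8% higher, beside 57.1% lower and 42.9% higher in this list. EIF4EBP1, which holds EIF4E away from EIF4G, fell more than any member: 775 and 806 TPM in sgNS, 210 and 216 with sgDDX6.1, and 219 and 211 with sgDDX6.2 (-1.88, SE 0.034, adjusted p = 1.53e-12). Against its target in the same library, the EIF4EBP1 to EIF4E ratio in TPM was 15.25 and 18.03 in sgNS and 3.99 to 4.77 in the sgDDX6 libraries. EIF4EBP3 fell by 0.88 and the double-stranded RNA kinase EIF2AK2 by 0.62, while EIF4EBP2 rose by 0.21. The other kinases of EIF2S1 divided: EIF2AK3 fell by 0.34, and EIF2AK1 and EIF2AK4 rose by 0.18 and 0.28.

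Termination and recycling genes moved little, with 2 of 6 lower and 1 higher: GSPT2 fell by 0.23, ETF1 by 0.10, and the ribosome rescue factor HBS1L rose by 0.12. ETF1 and HBS1L passed with sgDDX6.2 alone but not with sgDDX6.1 alone (limma adjusted p = 0.636 and 0.135). Of 12 genes that modify or load elongation factors beyond the members, 5 fell and 3 rose, among them SECISBP2 (-0.58) and EEFSEC (-0.36), which insert selenocysteine, and DPH2 (0.48), of the diphthamide pathway that modifies eEF2, and METTL13 (0.24), which methylates eEF1A. Mitochondrial translation factors had 4 of 10 higher and 3 lower, with GFM1 at 0.30, TUFM at 0.17 and MTIF3 at 0.17 among the higher and MRRF at -0.22 among the lower. MRRF did not pass with sgDDX6.1 alone (-0.09, limma adjusted p = 0.239). Median log2 fold changes were -0.07, -0.12 and -0.04 for these lists. The last 2 of these lists had 66.7% and 70.0% called, at or near the 66.7% of all genes, and the first had 3 of 6.

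TOP mRNAs outside the members were all lower where tested. Of 11 listed, only 6 had a row in the deposited table. All 6 passed the filter and fell, with a median of -0.44, beside 32.9% lower among all genes. They included NAP1L1, a histone chaperone (-0.64), RACK1, a scaffold bound to the small ribosomal subunit (-0.46), and NACA, of the nascent chain complex (-0.43). NPM1 in that list was lower by 0.09 (adjusted p = 0.00819) with an overlap between groups, and did not pass with sgDDX6.1 alone (-0.01, adjusted p = 0.692). Of the 82 ribosomal protein genes, 75 fell and 3 rose with a median of -0.34, which lies between the TOP members (-0.42) and the other members (-0.02).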

How the data were processed

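Poly(A)+ RNA of 6 libraries was sequenced. The authors deposited 1 table of TPM values with 2 decimals. It was made with RSEM 1.2.31 on GRCh38, per the submitters' processing notes; aligner and annotation: not given in the sources used here. Each library sums to 1000000, so depth is unknown, counts were not analysed here, and no interval or floor that needs counts was given. RSEM divides reads among near-identical copies by its model. Per the series' design text, selection used blasticidin at 10 and hygromycin B at 200 µg per ml.

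From the deposited TPM, log2(TPM + 1) was taken for genes with at least 1 TPM in 2 or more libraries, 11151 of 18806. With limma 3.58.1 (R 4.3.3), means of the 3 groups were estimated jointly, with a variance trend and 3 residual degrees of freedom. Two-sided moderated p-values were adjusted by Benjamini-Hochberg over all genes tested, with a threshold of 0.05. Because 1 is added, a fold change of a gene at low TPM is understated. The fit was tested on simulated data. Libraries are named by group and replicate number from the labels.

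Genes named with full values were the 5 TOP members and TPT1, the 10 members with the largest change in each direction and the 5 with the largest difference between guides in each direction (adjusted p under 0.05, mean of at least 5 TPM), the 5 most abundant, those not past the threshold at a mean of 100 TPM or more, their close paralogs, and up to 4 genes per list. Other members are named where subunits or every member are accounted for. Members and lists were chosen with earlier results of these data known. Coordinates come from GENCODE 29 and start sequences from RefSeq (GRCh38.p14). Alternatives covered the pseudocount, filter, scaling, variance model, replicate block and leaving out each library.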

Additional observations from a re-analysis of the deposited data

Results flagged for a closer look

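These members differed between the 2 DDX6 guides by limma's test of sgDDX6.2 minus sgDDX6.1 (adjusted p under 0.05). The log2 differences were -0.46 for EEF2KMT, -0.30 for EEF2K, -0.25 for EIF2B3, -0.25 for EIF4A2, -0.22 for EIF2A and 0.18 for EIF3C. EEF2K was higher than in sgNS with sgDDX6.1 (0.27, adjusted p = 0.00247) and did not pass with sgDDX6.2 (-0.03, adjusted p = 0.728). EIF4A2 was lower with sgDDX6.2 (-0.18, adjusted p = 0.00324) and did not pass with sgDDX6.1 (0.06, adjusted p = 0.240). EIF2A was lower with both guides (-0.24 with sgDDX6.1 and -0.46 with sgDDX6.2). EIF2B3 was lower with sgDDX6.2 (-0.29, adjusted p = 0.00157) and did not pass with sgDDX6.1 (-0.03, adjusted p = 0.667). EEF2KMT was higher with sgDDX6.1 (0.48, adjusted p = 0.00331) and did not pass with sgDDX6.2 (0.01, adjusted p = 0.923). EIF3C reads cannot be separated with certainty from those of its copy EIF3CL.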

How the results depend on the processing

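Of 17 members called higher against sgNS, 15 were called so under each of 18 alternatives they were tested in (all but EEF2KMT and EIF4E3), and of 25 called lower, 20 were (all but EEF1D, EIF2B3, EIF3A, EIF3G and EIF5A2); the 5 TOP members were lower in each. Of the 11 members not past the threshold, EIF4G3 was uncalled in each alternative, and EIF2S1, EIF1AX and EIF4A1 were called in opposite directions by 2 of them each. Taking ribosomal protein genes out of the scale also lowered the rise of EIF5A (0.16), EIF3I (0.12), EIF2B1 (0.13) and EEF1AKMT1 (0.17) and deepened the fall of EEF1D (-0.21), EIF2B3 (-0.25) and EIF3G (-0.21); the GC correction gave EIF2A -0.22, EIF5B 0.42, EEF1D -0.19 and EIF3G -0.19. The count of members called against sgNS, with both guides or with 1, ran from 36 to 46. EIF4A1 reversed under quantile normalization (-0.0904). The median of the TOP members minus that of the other members (-0.40) was -0.46 under quantile normalization, -0.35 after a loess correction for GC content (chosen after seeing the data) and -0.50 with the wider TOP list, and -0.44 to -0.39 with 1 library left out. The change in the summed share of the members (-0.80 percentage points) was -1.26 with ribosomal protein genes taken out of the scale. The 22 members called between guides became 12 without the variance trend, and 11 to 22 with 1 library left out. All genes called between guides fell from 3971 to 2579, 2252 and 2316 without sgDDX6.1 replicate 1, sgDDX6.2 replicate 1 and sgDDX6.2 replicate 2. With ribosomal protein genes taken out of the scale, 37.3% of calls against sgNS were higher, against 50.6%. Leaving out a library left its group with 1, assumed to vary like the others. The cause of these changes was not tested.

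Same-numbered libraries correlated in their deviations at 0.262 (sgNS and sgDDX6.1), 0.098 (sgNS and sgDDX6.2) and 0.04 (between guides). The main fit left the replicate number out. Whether same-numbered libraries share more than a number is not settled by these values. With a replicate block, 43 members and 7859 genes were called against sgNS, beside 42 and 7434 without it. Between guides 29 members were called, beside 22 without it. EIF6 passed with the block (0.10, adjusted p = 0.0193). Depth is unknown, so precision at low TPM cannot be stated.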
